A study of Homo sapiens with 3 samples.

Results

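POU2F transcription factors, the coactivators that bind them and marker genes of the tuft cell were followed in breast cancer cells that had become resistant to chemotherapy. The genes were POU2AF1, COLCA1, COLCA2, BTG4, POU2F1, POU2F2, POU2F3, AVIL, TRPM5 and ASCL2, which are 10 of the 46427 genes in the deposited table, found by an exact match of the gene symbol, and all 10 were found. The set was selected on the read counts of the same 3 libraries that are described here, with the fall of POU2AF1 and its neighbours already known, so the levels and changes of these genes are given as a description and are not tests of the pattern that chose them.

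MM468 cells are MDA-MB-468 cells, an epithelial breast cancer line derived from triple-negative breast cancer (TNBC), which lacks the hormone receptors and HER2. RNA sequencing was performed on parental MM468 cells, which carried no drug treatment, on adriamycin-resistant MM468 cells and on paclitaxel-resistant MM468 cells, in order to look for changes that accompany resistance. The resistant cells were the survivors of exposure to adriamycin, an anthracycline, at 10 to 140 nM, or to paclitaxel, a microtubule-binding taxane, at 2 to 320 nM, and all 3 lines had wild type as their genotype label and shared the same medium. Each line gave 1 library, so no difference has a replicate check, no SD can be given, and the drug cannot be told apart from the history of the single line that was exposed to it. The libraries held 32704885 counted reads in parental, 47567927 in adriamycin-resistant and 43242628 in paclitaxel-resistant MM468 cells.

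POU2F proteins, also called OCT factors, recognise the octamer element of DNA through a POU domain. POU2AF1 (OCA-B, the B-cell coactivator), POU2AF2 (OCA-T1) and POU2AF3 (OCA-T2, listed under its older symbol COLCA2) attach to the POU domain on octamer DNA and lend it activation function. POU2F3 is the master regulator of tuft cells, rare chemosensory epithelial cells that signal through taste-type receptors and the TRPM5 channel, and it relies on the OCA-T coactivators there and in tuft-cell-like cancers.

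POU2AF1, COLCA1, COLCA2 and BTG4 lie next to each other on the long arm of chromosome 11, together with POU2AF2, which the table lists as C11orf53. In the GENCODE v29 annotation of GRCh38, C11orf53 occupied chr11:111245805-111286401 on the plus strand, COLCA1 chr11:111290787-111305045 on the minus strand, COLCA2 chr11:111298555-111308735 on the plus strand, POU2AF1 chr11:111352252-111455630 on the minus strand and BTG4 chr11:111467526-111512354 on the minus strand. COLCA1 was annotated as an antisense RNA that overlaps COLCA2, and the others as protein-coding genes. COLCA1 and COLCA2 had several annotated starts, and the closest pair in RefSeq (GRCh38.p14) stood head to head with starts 100 bases apart. The 41 bases that lie just before this COLCA1 start, up to the first base that GENCODE places in an untranslated region of COLCA2, are shown because they lie between the closest starts of these members, although transcripts from other annotated starts of both genes run across them (chr11:111299210-111299250, plus strand, no capitals marked).

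COLCA1-COLCA2 start region: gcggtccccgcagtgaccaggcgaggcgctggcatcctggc

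These 41 bases were 75.6% G or C and held 4 CpG dinucleotides. RefSeq promoter windows, from 250 bases before to 50 after a start, were found for 6 members in 14 windows. They were searched on both strands for the octamer ATGCAAAT, the POU2F recognition element, which 1.77% of 35116 such windows held, and for its first 7 letters ATGCAAA, which every octamer also contains and which 4.46% held. Neither was present in the windows of COLCA1, COLCA2, BTG4 or POU2F2. The octamer was in 1 window of POU2F1, at an internal start. AVIL had the 7 letters without the full octamer, beginning 46 bases before its start. The 250 bases before that start (chr12:57818735-57818984, minus strand, GRCh38.p14) are shown because AVIL was among the members that were higher in paclitaxel-resistant cells, and capitals mark the match to ATGCAAA.

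AVIL upstream: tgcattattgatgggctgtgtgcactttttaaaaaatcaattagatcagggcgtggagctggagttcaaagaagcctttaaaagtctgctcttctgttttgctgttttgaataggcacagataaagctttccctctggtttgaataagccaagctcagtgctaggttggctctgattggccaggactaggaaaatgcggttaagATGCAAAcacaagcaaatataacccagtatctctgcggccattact

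A match is a string of letters only, and no binding was measured.

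POU2AF1, COLCA1, COLCA2 and BTG4 were at least 2-fold lower in both resistant lines, while none of the 3 POU2F genes was. Library sizes were normalised with TMM (edgeR), a gene was compared when 1 of the 2 libraries had at least 10 counts, and a change was called at 2-fold or more. In adriamycin-resistant cells, 4 of the 9 members compared were at least 2-fold lower and 0 were higher, where 11.4% of 17950 genes were lower and 10.9% were higher. In paclitaxel-resistant cells, 5 of 9 members were lower and 2 were higher, where 13.5% of 19099 genes were lower and 20.5% were higher. Because the members were chosen on these counts, nothing is read from these shares. The median log2 change of the members was -0.69 and -2.13 in adriamycin-resistant and paclitaxel-resistant cells, against 0.02 and 0.07 over all genes compared. Both comparisons used the same parental library, so a chance deviation of that library would appear in both.

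**Figure D1:**
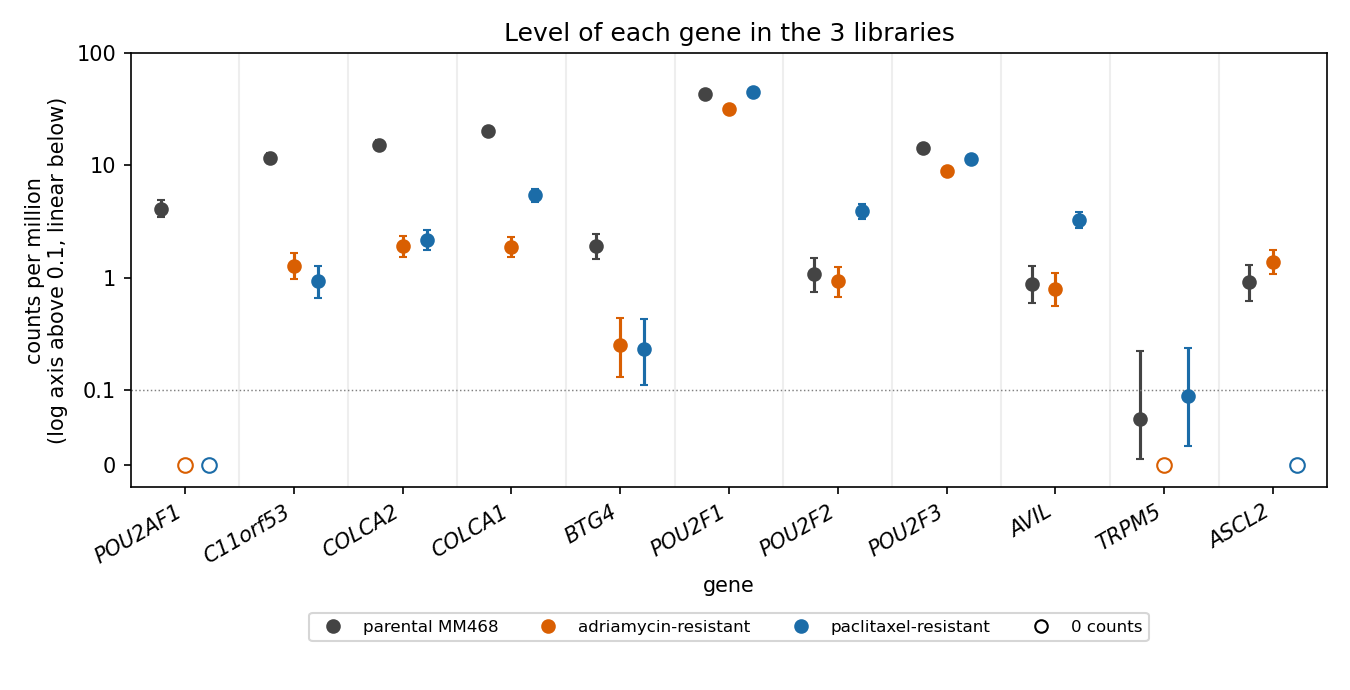
CPM of the 10 members and of C11orf53 in the 3 libraries, on an axis that is logarithmic above 0.1 and linear below. Points are single libraries, bars are exact Poisson 95% intervals of the count and open circles are 0 counts. The parental point stands above both resistant points for the 5 genes on the left, and POU2F1, POU2F2, AVIL and TRPM5 are highest in paclitaxel-resistant cells. CPM is scaled by library size alone, and POU2F1 was slightly below parental there after TMM.

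POU2AF1 (NCBI Gene 5450) had 135 counts in parental MM468 cells, 0 in adriamycin-resistant and 0 in paclitaxel-resistant cells. The parental library was thus the only one of the 3 with reads on this gene, at a CPM of 4.13, which is the count scaled to the library total. A count of 0 allows up to 3 counts, which is a CPM of 0.0631 in the adriamycin-resistant and 0.0694 in the paclitaxel-resistant library. Taken against 3 counts, POU2AF1 was at least 66.2-fold lower in adriamycin-resistant and at least 69.6-fold lower in paclitaxel-resistant cells. Among the 11397 protein-coding genes with 100 or more parental counts, POU2AF1 was the 1 gene with 0 counts in both resistant libraries. It was chosen with these counts known, so this is a description that depends on the minimum. TMEM213, with 79, 0 and 0 counts, lay under the minimum of 100. In bulk RNA, fewer cells that express a gene and less RNA per cell cannot be told apart. At 10 or more parental counts, 21 of 13263 protein-coding genes had 0 in both.

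The level of C11orf53 (POU2AF2, NCBI Gene 341032), which is not among the members, followed that of its neighbours. It had 378 counts in parental, 61 in adriamycin-resistant and 40 in paclitaxel-resistant cells. It was 9.12-fold lower in adriamycin-resistant cells (95% interval 6.94 to 12.2) and 14.6-fold lower in paclitaxel-resistant cells (10.5 to 20.8). The range in parentheses after each fold change is its 95% interval, computed from both counts by the exact binomial method. It covers counting error alone, since reads are not independent molecules and single libraries show no biological spread.

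COLCA2 (POU2AF3, NCBI Gene 120376) had 500 counts in parental, 91 in adriamycin-resistant and 94 in paclitaxel-resistant cells. Parental cells stood well above both resistant lines, whose counts lay close together. COLCA2 was 8.09-fold lower in adriamycin-resistant cells (6.46 to 10.2) and 8.23-fold lower in paclitaxel-resistant cells (6.59 to 10.4). Between the resistant lines the log2 change was -0.06, with an interval of the ratio from 0.711 to 1.29, and its sign turned to 0.18 when libraries were scaled by their size alone.

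COLCA1 (NCBI Gene 399948), the non-coding partner of COLCA2, had 663 counts in parental, 90 in adriamycin-resistant and 235 in paclitaxel-resistant cells. It was 10.8-fold lower in adriamycin-resistant cells (8.69 to 13.7) and 4.37-fold lower in paclitaxel-resistant cells (3.76 to 5.09). It was 2.42-fold higher in paclitaxel-resistant than in adriamycin-resistant cells (1.89 to 3.12), a log2 change of 1.28 that became 0.95, under 2-fold, in TPM with a pseudocount of 1. The library kit keeps the strand, but whether counting used it is not given in the sources used here, so reads of the overlapping part of COLCA1 and COLCA2 may be shared between them.

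BTG4 (NCBI Gene 54766), a member of the antiproliferative BTG/TOB family that acts in the maturation of oocytes, had 63 counts in parental, 12 in adriamycin-resistant and 10 in paclitaxel-resistant cells. The resistant libraries were both low, and their counts were too few to separate them, with a ratio of 0.773 (0.299 to 1.95). BTG4 was 7.73-fold lower in adriamycin-resistant cells (4.13 to 15.7) and 9.75-fold lower in paclitaxel-resistant cells (4.97 to 21.3). The transcript length implied by its counts and FPKM values was 1.72 kb in parental cells, 2.69 kb in adriamycin-resistant and 3.17 kb in paclitaxel-resistant cells. With 12 and 10 counts, the resistant values rest on few reads.

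**Figure D2:**
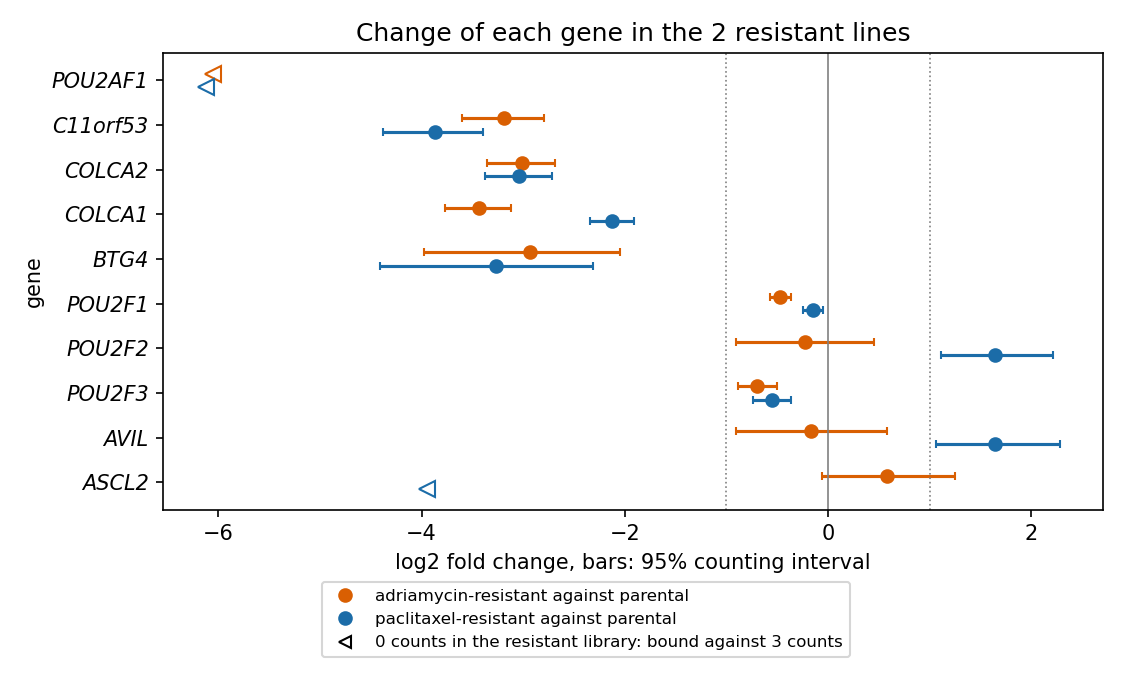
Log2 fold change of 9 members and of C11orf53 in each resistant line against parental MM468 cells. Circles carry 95% counting intervals, open triangles are bounds against 3 counts, and dotted lines mark a 2-fold change. TRPM5 is left out because it had 4 counts or fewer in every library. The coactivator genes lie left of the dotted line in both lines, and POU2F1 and POU2F3 lie between the dotted lines.

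POU2AF1, its 3 neighbours among the members and C11orf53 stood side by side, and the genes around them were examined. Of the 28 protein-coding genes within 15 places on either side of POU2AF1 in RefSeq, members left out, 1 was at least 2-fold lower in adriamycin-resistant cells, and that gene was C11orf53. Among the 25 of these genes that could be compared there, 4 were at least 2-fold higher (ZC3H12C, ARHGAP20, PIH1D2 and C11orf1), and the median log2 change was 0.15. In paclitaxel-resistant cells 3 of 24 were lower (C11orf53, CRYAB and DIXDC1) and 3 were higher (ZC3H12C, PIH1D2 and C11orf65), with a median of -0.02. Over all genes compared, 10.9% were higher and 11.4% lower in adriamycin-resistant cells and 20.5% higher and 13.5% lower in paclitaxel-resistant cells. The 4 neighbours higher in adriamycin-resistant cells became 1 with TPM and a pseudocount of 1, and 2 with FPKM and a pseudocount of 0.1.

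The nearest well-expressed genes on both sides of this stretch changed less than 2-fold. On the BTG4 side, HOATZ and LAYN had 0 counts in all 3 libraries, and the next gene, SIK2, a salt-inducible kinase, had 3014, 3205 and 3980 counts in parental, adriamycin-resistant and paclitaxel-resistant cells. Its log2 changes were -0.47 and -0.23. PPP2R1B, a scaffold subunit of protein phosphatase 2A, had 4035, 4246 and 5448 counts and log2 changes of -0.48 and -0.20. On the C11orf53 side, ARHGAP20 had 0, 12 and 3 counts, and the next gene, FDX1, a mitochondrial ferredoxin, had 1087, 1566 and 2288 counts and log2 changes of -0.03 and 0.44. RDX, which encodes the membrane-cytoskeleton linker radixin, had log2 changes of -0.15 and 0.02.

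Farther out, single genes moved in their own directions. ZC3H12C, an RNA-binding regulator of inflammation 6 places away, had 0 counts in parental, 639 in adriamycin-resistant and 2433 in paclitaxel-resistant cells. It was at least 145-fold higher in adriamycin-resistant and at least 524-fold higher in paclitaxel-resistant cells, opposite to POU2AF1. CRYAB, the small heat shock protein alphaB-crystallin, had 4518, 7496 and 1082 counts and was 6.46-fold lower in paclitaxel-resistant cells (6.05 to 6.91), with a log2 change of 0.17 in adriamycin-resistant cells. DNA copy number and methylation of the stretch were not measured, and their part in the result was not tested.

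**Figure D3:**
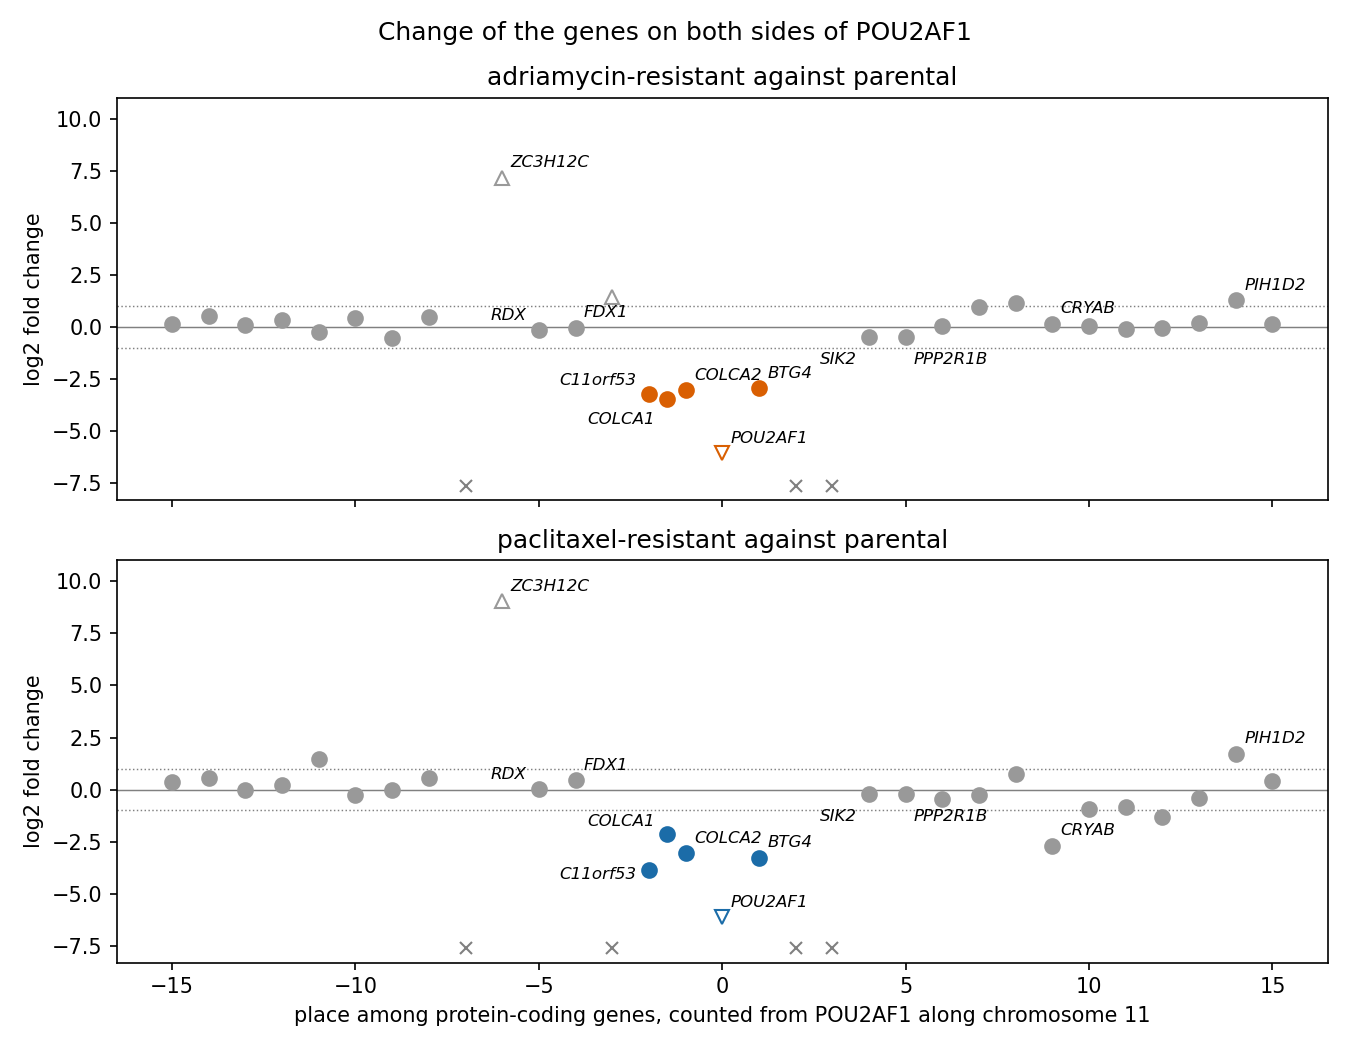
Log2 fold change of the protein-coding genes up to 15 places on either side of POU2AF1, with COLCA1 added between C11orf53 and COLCA2, in adriamycin-resistant (upper) and paclitaxel-resistant (lower) cells against parental cells. Coloured symbols are the members and C11orf53, grey symbols the other genes, triangles are bounds against 3 counts and crosses at the lower edge are genes with too few counts to compare. The coloured genes lie below the dotted 2-fold line in both panels, and FDX1 and SIK2 lie between the dotted lines. The open triangle between FDX1 and the coloured genes in the upper panel is ARHGAP20.

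The genes whose levels over the 3 libraries lay nearest to those of POU2AF1 were CCDC33, TMEM213, KIT, BCAS1 and M1AP, ranked by the Euclidean distance of log2(CPM + 0.1) over the 3 libraries among protein-coding genes. CCDC33 had 94, 2 and 0 counts in parental, adriamycin-resistant and paclitaxel-resistant cells. TMEM213 had 79, 0 and 0 counts, and M1AP had 49, 0 and 0. KIT, the receptor of stem cell factor and a gene expressed in tuft cells, had 65, 3 and 0 counts. BCAS1 had 87, 6 and 0 counts. All 5 were highest in parental cells, which follows from choosing them by closeness to POU2AF1. Their parental counts lay below the 135 of POU2AF1.

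The POU2F factors themselves changed less or in another direction. POU2F3 (NCBI Gene 25833, chr11:120236640-120319944, plus strand), the tuft-cell factor, had 463 counts in parental, 421 in adriamycin-resistant and 489 in paclitaxel-resistant cells. The raw counts were of similar size in the 3 libraries, and after normalisation to the deeper resistant libraries POU2F3 was 1.62-fold lower in adriamycin-resistant (1.42 to 1.85) and 1.47-fold lower in paclitaxel-resistant cells (1.29 to 1.67). The corresponding log2 changes were -0.69 and -0.55, short of the 2-fold line, and the second was 0.01 on the deposited TPM values with a pseudocount of 1. The transcript length implied for POU2F3 was 3.75 kb in parental, 3.38 kb in adriamycin-resistant and 3.14 kb in paclitaxel-resistant cells. Relative to parental, implied lengths ran from 0.942 to 1.06 (percentiles 5 to 95) over 11996 genes in adriamycin-resistant cells. In paclitaxel-resistant cells they ran from 0.920 to 1.06 over 11955 genes, and POU2F3 lay below both ranges.

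POU2F1 (NCBI Gene 5451, chr1:167220829-167427345, plus strand), the ubiquitous OCT1, had 1406 counts in parental, 1495 in adriamycin-resistant and 1960 in paclitaxel-resistant cells. Its log2 changes of -0.47 and -0.15 were both below 2-fold, and the second turned to 0.08 with library size alone, so that no direction holds in paclitaxel-resistant cells. POU2F2 (NCBI Gene 5452, chr19:42086110-42196585, minus strand), the lymphoid OCT2, had 35, 44 and 169 counts in the same order. The paclitaxel-resistant library stood apart from the other two. POU2F2 was 3.12-fold higher there than in parental cells (2.16 to 4.63) and 3.56-fold higher than in adriamycin-resistant cells (2.54 to 5.09), while the ratio of adriamycin-resistant to parental cells was 0.854 (0.535 to 1.37). With TPM and a pseudocount of 1, the log2 change of 1.64 in paclitaxel-resistant cells became 0.78.

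The order of the POU2F genes and their coactivators changed with these shifts. On the TPM scale, which corrects for length, the level in parental cells was 19.7 for COLCA2, 9.13 for POU2F3, 8.03 for COLCA1, 6.86 for POU2F1, 2.72 for BTG4 and 2.27 for POU2AF1. C11orf53 was at 19.0 TPM, close to COLCA2, so the OCA-T coactivators stood above POU2F3 in parental cells. In adriamycin-resistant cells, TPM levels were 6.07 for POU2F3, 4.82 for POU2F1, 2.37 for COLCA2 and 2.00 for C11orf53. In paclitaxel-resistant cells they were 9.21 for POU2F3, 7.78 for POU2F1, 3.26 for COLCA2 and 1.62 for C11orf53. POU2F3 thus stood above both OCA-T coactivators in each resistant library. With single libraries, the spread that neighbouring levels would need to be separated is not known.

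The remaining members are markers of tuft cells or of intestinal stem cells, and they did not move together. AVIL (NCBI Gene 10677, chr12:57797376-57818704, minus strand) encodes advillin, an actin regulator of the villin family that marks tuft cells. It had 29 counts in parental, 38 in adriamycin-resistant and 141 in paclitaxel-resistant cells. AVIL was 3.14-fold higher in paclitaxel-resistant than in parental cells (2.10 to 4.86) and 3.44-fold higher than in adriamycin-resistant cells (2.39 to 5.06). Its adriamycin-resistant to parental ratio was 0.890 (0.535 to 1.50). In TPM with a pseudocount of 1, the log2 change in paclitaxel-resistant cells was 0.98 instead of 1.65, just under 2-fold. AVIL overlaps TSFM on the opposite strand, and TSFM had 821, 1555 and 1276 counts, and reads of the overlapping part may be shared between them.

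TRPM5 (NCBI Gene 29850, chr11:2404515-2423045, minus strand), the cation channel that carries the taste signal of tuft cells, had 2, 0 and 4 counts. It was at the limit of detection in all 3 libraries and was not compared. ASCL2 (NCBI Gene 430, chr11:2268495-2270952, minus strand), a Wnt-dependent factor of intestinal stem cells that also belongs to the tuft-cell-like tumour programme, had 30 counts in parental, 66 in adriamycin-resistant and 0 in paclitaxel-resistant cells. The resistant lines thus differed in ASCL2. Taken against 3 counts, it was at least 15.5-fold lower in paclitaxel-resistant than in parental cells and at least 23.7-fold lower than in adriamycin-resistant cells. The change in adriamycin-resistant cells was 1.49-fold higher, with an interval that included no change (0.957 to 2.38).

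The resistant lines were also compared with each other. Of 8 members with enough counts, 3 were at least 2-fold higher in paclitaxel-resistant than in adriamycin-resistant cells (POU2F2, AVIL and COLCA1) and ASCL2 was the 1 member that was lower. In TPM with a pseudocount of 1, AVIL alone of the 3 stayed past 2-fold, with a log2 change of 1.03, and POU2F2 had 0.84. At a minimum of 100 counts ASCL2 was not compared and 0 members were lower. Over 19327 genes, 19.4% were higher and 14% were lower. The median log2 change of the members was 0.20, against 0.04 over all genes.

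A list of 42 other genes of tuft cells and their regulators was examined next, which included C11orf53. In adriamycin-resistant cells, 10 of the 24 that could be compared were at least 2-fold lower and 4 were higher, with a median log2 change of -0.75, beside 11.4% lower and 10.9% higher over all genes compared. In paclitaxel-resistant cells, 14 of 27 were lower and 8 were higher, with a median of -1.01, beside 13.5% lower and 20.5% higher over all genes. The list was put together with results of these libraries known, so these counts are a description. The paclitaxel-resistant counts depended on the scale, with 4 lower and 0 higher in TPM with a pseudocount of 1, 8 and 5 in FPKM with a pseudocount of 0.1, and 7 and 1 at a minimum of 100 counts. In adriamycin-resistant cells a minimum of 100 counts left 6 lower and 1 higher, and TPM left 2 higher. Of the 42 genes, 17 had 0 counts in parental, 14 in adriamycin-resistant and 13 in paclitaxel-resistant cells, and 11 had 0 counts in all 3 libraries. The latter included the Gα subunit gustducin (GNAT3), the cytokine IL25, the signalling genes RGS13, SH2D7 and BMX, the prostaglandin synthase HPGDS and the succinate receptor SUCNR1. GFI1B, another tuft-cell transcription factor, had 0, 0 and 3 counts. The summed counts of the list were 64331, 81431 and 69545 and KRT18, a keratin of simple epithelia in general, was the most abundant gene with 28607, 54698 and 42575 counts.

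Several receptors and signalling enzymes of tuft cells were at least 2-fold lower in both resistant lines, of which IL17RB and PLCG2 also were in TPM with a pseudocount of 1. IL17RB, the IL25 receptor of tuft cells, had 487, 148 and 113 counts in parental, adriamycin-resistant and paclitaxel-resistant cells. It was 4.84-fold lower in adriamycin-resistant cells (4.02 to 5.86) and 6.67-fold lower in paclitaxel-resistant cells (5.42 to 8.26). PLCG2, a phospholipase C, had 1562, 717 and 348 counts and was 3.21-fold (2.93 to 3.51) and 6.95-fold lower (6.18 to 7.82). KIT was 31.9-fold lower in adriamycin-resistant cells on 3 counts (10.4 to 159) and at least 33.5-fold lower in paclitaxel-resistant cells. From a low parental level, its log2 changes in TPM with a pseudocount of 1 were -0.85 and -0.88.

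The leukotriene C4 synthase LTC4S, with 35, 9 and 17 counts, was 5.72-fold (2.70 to 13.5) and 3.19-fold lower (1.74 to 6.06). ESPN, an actin-bundling protein of microvilli, had 93, 27 and 56 counts and was also lower in both. The inositol trisphosphate receptor ITPR3 had 14925, 10339 and 9914 counts, with log2 changes of -1.09 and -1.22. SOX4, a transcription factor with a role in tuft-cell differentiation, had log2 changes of -1.33 and -1.24, and SOX9 had -0.87 and -1.01. In TPM with a pseudocount of 1, ESPN fell short of 2-fold in both lines, with log2 changes of -0.95 and -0.52, and LTC4S, ITPR3 and SOX4 fell short in paclitaxel-resistant cells, with -0.88, -0.87 and -0.90. SOX9 had -0.91 and -0.67 on that scale. KRT18 changed less than 2-fold, with 0.38 and -0.06.

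Other tuft-cell genes were at least 2-fold higher in a resistant line, from low parental counts, and none of the 8 in paclitaxel-resistant cells stayed past 2-fold in TPM with a pseudocount of 1. MATK, a kinase that inhibits Src-family kinases, had 0, 78 and 30 counts, and SPIB, an ETS factor, had 0, 35 and 32. PTGS1 (COX-1), which tuft cells express, had 0, 8 and 29 counts, and HMX2, a homeobox gene, had 0, 8 and 21. SH2D6, an adaptor gene of tuft cells, had 3, 17 and 13 counts, and its counting interval in paclitaxel-resistant cells included no change. DCLK1, a kinase widely used to mark tuft cells, had 8, 4 and 34 counts and was 2.75-fold higher in paclitaxel-resistant cells (1.25 to 6.87). The sweet and umami receptor subunit TAS1R3 had 46, 23 and 145 counts. VAV1, TRPM4 and PLCB2 were at least 2-fold lower in paclitaxel-resistant cells, with log2 changes of -1.68, -1.60 and -1.20, and had -0.12, 0.10 and 0.24 in adriamycin-resistant cells. TRPM4 stayed past 2-fold in paclitaxel-resistant cells in TPM with a pseudocount of 1, with -1.15. VAV1 and PLCB2 fell short, with -0.999 and -0.30.

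**Figure D4:**
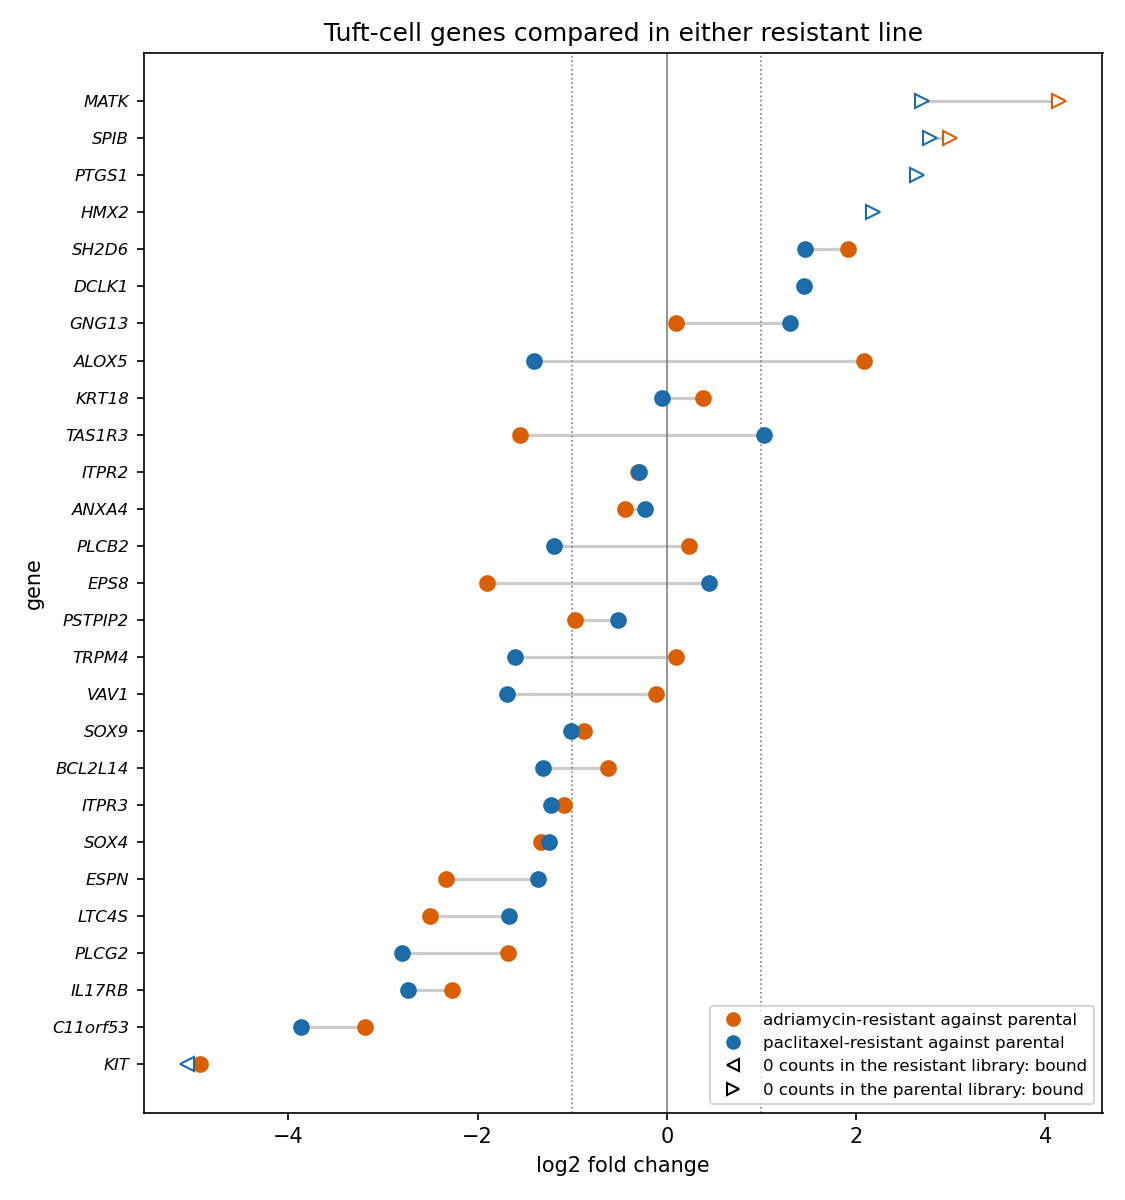
Log2 fold change of the 27 genes of the tuft-cell list that could be compared in a resistant line, ordered by their mean change. Circles are adriamycin-resistant and paclitaxel-resistant cells against parental cells, open triangles are bounds against 3 counts and dotted lines mark a 2-fold change. KIT, C11orf53, IL17RB, PLCG2, LTC4S and ESPN lie left of the dotted line in both lines, and ALOX5 and TAS1R3 lie on opposite sides.

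POU2AF1 is best known from B cells, and its level was therefore set beside B-cell genes. The markers MS4A1 and CD79B, with BLK, IKZF1 and JCHAIN, had 0 counts in all 3 libraries, CD79A had 4, 6 and 4, and CR2, a complement receptor, had 88, 155 and 324. Of the 23 genes on the list, 5 of 9 compared were at least 2-fold lower and 0 were higher in adriamycin-resistant cells, and 3 of 10 were lower and 3 were higher in paclitaxel-resistant cells, with median log2 changes of -1.04 and -0.08. The shares over all genes were 11.4% lower and 10.9% higher, and 13.5% lower and 20.5% higher. The list's summed counts were 9581, 5844 and 4312, and XBP1, a secretory-pathway factor found well beyond B cells, had 4829, 2587 and 821 of them. CD22, a lectin of B cells, had 556, 83 and 158 counts and was 9.86-fold lower in adriamycin-resistant (7.82 to 12.6) and 5.45-fold lower in paclitaxel-resistant cells (4.56 to 6.54). BCL6, a transcriptional repressor, had 2903, 1100 and 1678 counts and log2 changes of -1.96 and -1.42. The genes past 2-fold higher in paclitaxel-resistant cells were CIITA, by 6.18-fold (3.94 to 10.2), CR2, by 2.38-fold (1.87 to 3.05), and CXCR5, on 3 and 12 counts, whose interval of 0.698 to 14.3 included no change. In TPM with a pseudocount of 1, CIITA had a log2 change of 0.91 and CXCR5 of 0.15, and BCL6 had -0.73 in paclitaxel-resistant cells, all under 2-fold.

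Markers of other cell types were examined for the same reason, beside the same shares over all genes of 11.4% lower and 10.9% higher in adriamycin-resistant cells and 13.5% lower and 20.5% higher in paclitaxel-resistant cells. The 8 epithelial markers were present in every library, at 197031, 327135 and 228638 summed counts, with KRT8 as the most abundant. EPCAM had 12913, 16319 and 22209 counts. None of the 8 changed 2-fold in adriamycin-resistant cells, and KRT7 was the 1 marker that was lower in paclitaxel-resistant cells, by 2.24-fold (2.21 to 2.28), with medians of 0.21 and -0.32. KRT7 fell short of 2-fold there in TPM with a pseudocount of 1, with a log2 change of -0.84. CDH1, another of the 8, had 1.09 on that scale, past 2-fold higher, against 0.78 in the main values. Of 8 neuroendocrine markers, CHGA, CHGB, INSM1, NEUROD1 and SCG3 had 0 counts in all libraries, and the list summed to 21, 51 and 50. SCG2, at 7, 27 and 20 counts, was the 1 neuroendocrine gene past 2-fold, higher in adriamycin-resistant cells, and the 2 compared gave medians of 0.80 and 0.67. The 10 leukocyte markers summed to 565, 798 and 606 counts, with CD3D and CD2 at 0 in all libraries. CD68 had 206, 527 and 65 counts. PTPRC (CD45) had 24, 0 and 44 counts. Of 4 leukocyte genes compared, PTPRC and ITGAM were lower in adriamycin-resistant cells and CD68 was lower in paclitaxel-resistant cells, with medians of -1.11 and 0.02. With TPM and a pseudocount of 1, PTPRC, ITGAM and SCG2 had log2 changes of -0.37, -0.24 and 0.31 in adriamycin-resistant cells, under 2-fold. CD68 stayed past 2-fold in paclitaxel-resistant cells, with -1.57.

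Relatives of the members by sequence family or by partnership were described in the same way. Their counts stand beside shares over all genes of 10.9% higher and 11.4% lower in adriamycin-resistant cells and 20.5% higher and 13.5% lower in paclitaxel-resistant cells. Of 12 other POU-domain genes, 2 were at least 2-fold higher and 1 was lower among the 4 compared in adriamycin-resistant cells, with a median of 0.48. In paclitaxel-resistant cells 2 were higher and 1 was lower of 5, with a median of 0.07. POU4F1 (BRN3A), a neuronal factor, had 250, 747 and 1187 counts and was 2.03-fold (1.76 to 2.35) and 3.07-fold higher (2.67 to 3.53). POU3F2 (BRN2), with 0, 2 and 72 counts, was at least 15.5-fold higher in paclitaxel-resistant cells. POU5F1 had 32, 15 and 3 counts and was lower in both lines. POU4F3 had 8, 26 and 13 counts. It was 2.21-fold higher in adriamycin-resistant cells, with an interval that included no change (0.971 to 5.64). On TPM values with a pseudocount of 1, POU4F1 and POU4F3 had log2 changes of 0.82 and 0.26 in adriamycin-resistant cells, under 2-fold. POU5F1, with -0.635 and -0.858, and POU3F2, with 0.85 in paclitaxel-resistant cells, were also under 2-fold. POU4F1 stayed past 2-fold in paclitaxel-resistant cells, with 1.70.

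POU2F1 also drives small nuclear RNA genes together with the SNAP complex. Of 8 such partners, SNAPC1 was at least 2-fold higher in adriamycin-resistant cells and 0 were lower, with a median of 0.18. In paclitaxel-resistant cells SNAPC4 and SNAPC1 were higher and SNAPC5 was lower, with a median of -0.05. SNAPC1 had 270, 1108 and 892 counts and was 2.79-fold (2.44 to 3.20) and 2.13-fold higher (1.86 to 2.46), while POU2F1 itself changed less than 2-fold. In paclitaxel-resistant cells, TPM with a pseudocount of 1 gave log2 changes of -0.69 for SNAPC5, under 2-fold, 1.56 for SNAPC4 and 1.31 for SNAPC1.

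In the villin and gelsolin family of AVIL, 1 of 6 compared genes was at least 2-fold higher and 2 were lower in adriamycin-resistant cells, and 0 were higher and 2 were lower in paclitaxel-resistant cells, with medians of -0.39 and -0.68. VILL, the villin-like gene, had 360, 67 and 101 counts and was 7.91-fold (6.08 to 10.4) and 5.52-fold lower (4.41 to 6.95), so it moved opposite to AVIL in paclitaxel-resistant cells. VIL1 had 9, 9 and 5 counts, and SCIN, which encodes scinderin, had 10, 66 and 11. The log2 change of SCIN in adriamycin-resistant cells was 0.28 in TPM with a pseudocount of 1, under 2-fold. GSN, which encodes gelsolin, had log2 changes of -1.62 and -0.75, and CAPG, a capping protein, had -0.51 and -2.46.

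Of 7 TRPM channels beside TRPM5, 2 were higher and 0 were lower of 5 compared in adriamycin-resistant cells, and 2 were higher and 2 were lower of 6 in paclitaxel-resistant cells, with medians of 0.39 and 0.55. TRPM4, the close relative of TRPM5 that shares its role in tuft cells and taste cells, was well expressed at 1091, 1721 and 555 counts. It was 3.04-fold lower in paclitaxel-resistant cells (2.74 to 3.38). TRPM3 had 0, 27 and 56 counts, and TRPM1 had 0, 0 and 12. TPM with a pseudocount of 1 left TRPM3 under 2-fold in both lines, with log2 changes of 0.13 and 0.32. In paclitaxel-resistant cells TRPM1 had 0.14 on that scale, under 2-fold, and TRPM4 had -1.15.

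All 5 relatives of BTG4 in the BTG/TOB family were expressed in each library. BTG2, an immediate-early antiproliferative gene, was at least 2-fold higher in both resistant lines, with 43, 299 and 208 counts and folds of 4.72 (3.42 to 6.67) and 3.13 (2.24 to 4.45), in the opposite direction to BTG4. The other genes of the family changed less than 2-fold, and the medians were 0.22 and -0.16.

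ASCL2 was set beside 21 genes of the Wnt pathway and of crypt stem cells. In adriamycin-resistant cells 6 of the 16 compared were at least 2-fold lower and 2 were higher, with a median of -0.65, and in paclitaxel-resistant cells 3 of 18 were lower and 3 were higher, with a median of -0.28. Over all genes compared, 11.4% were lower and 10.9% higher in the first comparison, and 13.5% and 20.5% in the second. LGR5, the stem-cell receptor for R-spondins that ASCL2 accompanies in the crypt, had 0, 0 and 67 counts, and LEF1, a Wnt effector, had 0, 0 and 133. Both were thus detected only in the paclitaxel-resistant library, the one with 0 counts of ASCL2. OLFM4, a secreted marker of crypt stem cells, had 613, 224 and 0 counts and was at least 316-fold lower in paclitaxel-resistant cells. PROM1 (CD133) had 7389, 1426 and 2402 counts and was lower in both lines, by 7.63-fold (7.21 to 8.08) and 4.76-fold (4.55 to 4.99). MSI1, an RNA-binding protein of stem cells, had 22, 106 and 154 counts and was higher in both, by 3.27-fold (2.05 to 5.44) and 4.52-fold (2.88 to 7.43). NKD1, a Wnt inhibitor, was lower in both, with log2 changes of -1.44 and -1.11. EPHB2 and PHLDA1 were lower in adriamycin-resistant cells, with -2.40 and -1.65, and had 0.07 and -0.15 in paclitaxel-resistant cells. SP5 had 6, 26 and 18 counts. AXIN2, a general Wnt target, changed less than 2-fold in both, with log2 changes of -0.57 and -0.56. Several of these calls fell under 2-fold in TPM with a pseudocount of 1. NKD1 had -0.84 and -0.53, MSI1 had 0.79 and SP5 had 0.29 in adriamycin-resistant cells, and LGR5 had 0.89 in paclitaxel-resistant cells. The other calls of this list named here stayed past 2-fold on that scale.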

How the data were processed

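RNA was sequenced by Macrogen Japan Corp. from 1 library each of parental, adriamycin-resistant and paclitaxel-resistant MM468 cells, prepared with a stranded mRNA kit. The submitters' processing notes name Trimmomatic 0.39, HISAT2 2.2.1, StringTie 2.2.1 and GRCh38. The annotation release and the use of strand in counting are not given in the sources used here. The authors deposited read counts per gene without normalization, and FPKM and TPM values in the same table. The main results used the counts.

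Counts were compared pairwise with edgeR 4.0.16 in R 4.3.3 after TMM normalization. The prior count was 0.125 and a gene needed 10 counts in 1 of the 2 libraries. The quasi-likelihood test of edgeR needs replicates, which these data lack, so no p-value is given. A call is a change of 2-fold or more. Intervals are exact 95% intervals (binomial for ratios, Poisson for counts). Bounds use 3 counts in place of 0, leave out the counting error of the other count and are not 95% limits. DESeq2 1.42.0 size factors and 7 other settings were alternatives. The steps were tested on simulated data. Implied lengths are counts divided by FPKM and by the library total. Gene IDs of 44698 of the 46427 genes matched RefSeq (GRCh38.p14), which gave gene order and promoter windows, and positions are from GENCODE v29. Figures were drawn with matplotlib 3.10.9.

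The members and all lists were chosen with earlier results of these data known. The lists were tuft-cell genes, POU-domain genes, POU2F1 partners, B-cell genes, Wnt and crypt genes, the villin, TRPM and BTG/TOB families, epithelial, neuroendocrine and leukocyte markers, and the neighbours of POU2AF1. Genes named were the members, genes of the lists that changed at least 2-fold (up to the 4 highest and 4 lowest per list and resistant line) or had 0 counts in 1 library and 50 or more in another, defining markers, changed neighbours of POU2AF1, and the 5 protein-coding genes nearest to POU2AF1. Other genes of the lists and neighbours were named after their values were seen, and some genes of the lists are not reported here by name.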

Additional observations from a re-analysis of the deposited data

Results flagged for a closer look

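Of the genes named or listed, 4 changed at least 2-fold in opposite directions in the resistant lines, and these differences were not tested, since each line gave 1 library. In TPM with a pseudocount of 1, none of the 4 was past 2-fold in both lines, with log2 changes of 1.47 and -0.76 for ALOX5, -0.55 and 0.80 for TAS1R3, -0.13 and 0.91 for CIITA and 0.12 and -0.04 for TRPM6. ALOX5, which encodes 5-lipoxygenase and is expressed in tuft cells, had 65 counts in parental, 407 in adriamycin-resistant and 38 in paclitaxel-resistant cells, with log2 changes of 2.09 and -1.40. TAS1R3 had log2 changes of -1.55 and 1.02, on 46, 23 and 145 counts. CIITA, the class II transactivator, had log2 changes of -1.04 and 2.62, on 21, 15 and 201 counts. TRPM6, on 10, 32 and 7 counts, had log2 changes of 1.11 and -1.13, and the counting interval of the second fold, 0.146 to 1.32, included no change.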

How the results depend on the processing

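No paired analysis was possible because each line had 1 library, and for the same reason no library could be left out. Of 199 alternative values of members over 8 alternatives, 165 stayed within the counting interval of the main value, and 7 had the opposite sign, all of changes below 2-fold (POU2F1 and POU2F3 in paclitaxel-resistant cells, COLCA2 between the resistant lines). Of 1439 values of named genes, 1170 stayed within the counting interval or bound, 269 fell outside it and 15 did not keep the sign of the main value. None reversed a call, which means a change of sign and not a fall under 2-fold. Scaling by library size alone moved the median of all genes by 0.23 in paclitaxel-resistant against parental and by 0.25 against adriamycin-resistant cells, and the share of higher among changed genes from 60.2% to 71.2% and from 58.2% to 71.4%. TPM with a pseudocount of 1 also drops the TMM scaling, and the length it implies for a gene can differ between libraries. Its effect is that of all these changes together. It moved the median of all genes by 0.20 and 0.26 in the same comparisons. In adriamycin-resistant cells it gave 2 tuft-cell genes higher (main 4), 1 neighbour higher (main 4) and 9.98% of all genes changed (main 22.3%). In paclitaxel-resistant cells it gave 0 members higher (main 2), 0 tuft-cell genes higher (main 8), 4 lower (main 14) and 19.2% of all genes changed (main 34.0%). Between the resistant lines it gave 1 member higher (main 3), 2 tuft-cell genes higher and 2 lower (main 6 and 6), 1 neighbour lower (main 5) and 19.3% of all genes changed (main 33.4%). FPKM with a pseudocount of 0.1 gave 2 neighbours higher in adriamycin-resistant cells, 5 tuft-cell genes higher and 8 lower in paclitaxel-resistant cells, and 3 tuft-cell genes higher and 1 neighbour lower between the resistant lines. A minimum of 100 counts compares fewer genes. It left 1 tuft-cell gene higher, 6 lower and 14.1% of all genes changed in adriamycin-resistant cells. In paclitaxel-resistant cells it left 3 members lower (main 5), 1 tuft-cell gene higher and 7 lower. Between the resistant lines it left 0 members lower (main 1), 2 tuft-cell genes higher, and 1 neighbour higher (main 2) and 3 lower. With no minimum, 34.1% of all genes changed in adriamycin-resistant cells and 5 neighbours were higher in paclitaxel-resistant cells (main 3). Depth limits TRPM5, with 4 counts or fewer in every library, and leaves wide intervals for BTG4, KIT and DCLK1.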
